A study of Mus musculus with 6 samples.

Results

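The calcium/calmodulin signaling genes of the hippocampus described here are 10 of the 20234 genes in the deposited table. They were chosen by name and comprise Camk2a, Camk2b, Camk2d and Camk2g, which encode the alpha, beta, delta and gamma subunits of calcium/calmodulin-dependent kinase II (CaMKII), the nuclear kinase gene Camk4 and the activating kinase gene Camkk2, the calcineurin genes Ppp3ca, Ppp3cb and Ppp3r1, and the neurogranin gene Nrgn. C57Bl6 male mice received a single injection of placebo (mice 1, 3 and 5) or of 5000 IU/kg recombinant human erythropoietin (rhEPO, here EPO; mice 2, 4 and 6) at postnatal day 28. After 6 h, the hippocampi were chopped into 600 µm sections, and the CA1 region was dissociated with papain and DNaseI for Drop-seq. Drop-seq reads the 3′ end of each transcript, together with a barcode for the cell and a unique molecular identifier (UMI). All mice were of the same strain, sex and age, and each library was labelled as a separate mouse. The labels also carry a D number of unstated meaning, D1 for placebo mice 1 and 3 and EPO mouse 2, and D2 for the other mice.

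CaMKII is a multimeric kinase that is switched on when calcium-loaded calmodulin binds it and that then keeps itself active by autophosphorylation. It is abundant at excitatory synapses and is known for its role in long-term potentiation. Calcineurin is the phosphatase that answers the same signal and is known for its role in long-term depression, while neurogranin holds calmodulin in the postsynaptic compartment of pyramidal neurons until calcium rises. CaMKK2 phosphorylates CaMKIV, which acts in the nucleus on CREB-dependent transcription.

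Barcodes with more than 1000 and at most 8000 detected genes and at most 40% mitochondrial UMIs were retained, which left 390 placebo and 583 EPO cells, 43 to 271 per mouse, with 204479 to 1948490 UMIs per mouse. Barcodes were not independent across libraries. Of the barcodes retained in placebo mouse 1, 26 were also retained in EPO mouse 4, whereas the other pairs of mice shared 0 retained barcodes. Among the EPO copies, all 26 placebo copies correlated best with that of the same barcode (median r = 0.75 over genes, against a median of 0.41 with the other shared barcodes). The placebo copies held 3.16 to 5.87 times as many UMIs as the EPO copies. All 26 pairs fell into the same cell class, 16 of them into the glutamatergic-like class. The EPO copies made up 9.59% of the cells and 7.04% of the UMIs of the 10 genes in EPO mouse 4. In placebo mouse 1, the 26 copies were among 163 cells but held 509904 of its 1125458 UMIs. They held 3504 UMIs of the 10 genes there. The tests of the 10 genes and of their shares were therefore also computed without these barcodes. So were levels in all retained, glutamatergic-like, CA1 pyramidal-like, GABAergic-like, oligodendrocyte-like and astrocyte-like cells of both mice. Levels in the other classes, comparisons among clusters of glutamatergic-like cells and the similarity of patterns were computed only with them.

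The cells were clustered on genes other than the 10 described here, and clusters were named by marker genes that did not include them. The classes comprised 617 glutamatergic-like, 46 GABAergic-like, 130 oligodendrocyte-like, 37 oligodendrocyte precursor-like, 76 astrocyte-like, 39 endothelial-like, 18 microglia-like and 10 mural-like cells. Their own markers were 9.80 to 1260 times higher than in the remaining cells. Of the glutamatergic-like cells, 416 lay in a pair of clusters that carried CA1 pyramidal markers. The others lay in clusters led by Rxfp1, Tshz3, Rmst and Tshz2 or by Slc17a6 and Nts. The tissue labelled as CA1 thus also held neurons with other markers. Levels are UMIs per 1000000 UMIs (CPM), summed over the cells of a class within a mouse, and only mice with at least 5 cells of a class were used. The order of levels covers the 6 classes with at least 3 such mice and leaves out microglia-like cells (2 mice) and mural-like cells (0 mice). As UMIs were counted at the 3′ end, levels were not divided by transcript length.

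Together, the 10 genes gave 46385 of the 6910600 UMIs in retained cells (0.671%). Ppp3ca alone held 45.5% of them and ranked 10 among all genes by UMIs. Nrgn followed with 6874 UMIs, Camk2b with 4930, Ppp3r1 with 3910, Camk2a with 3816, Ppp3cb with 2543, Camk4 with 1255, Camkk2 with 838, Camk2g with 778 and Camk2d with 357. The precision for Camk2d is accordingly the lowest.

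**Figure D1:**
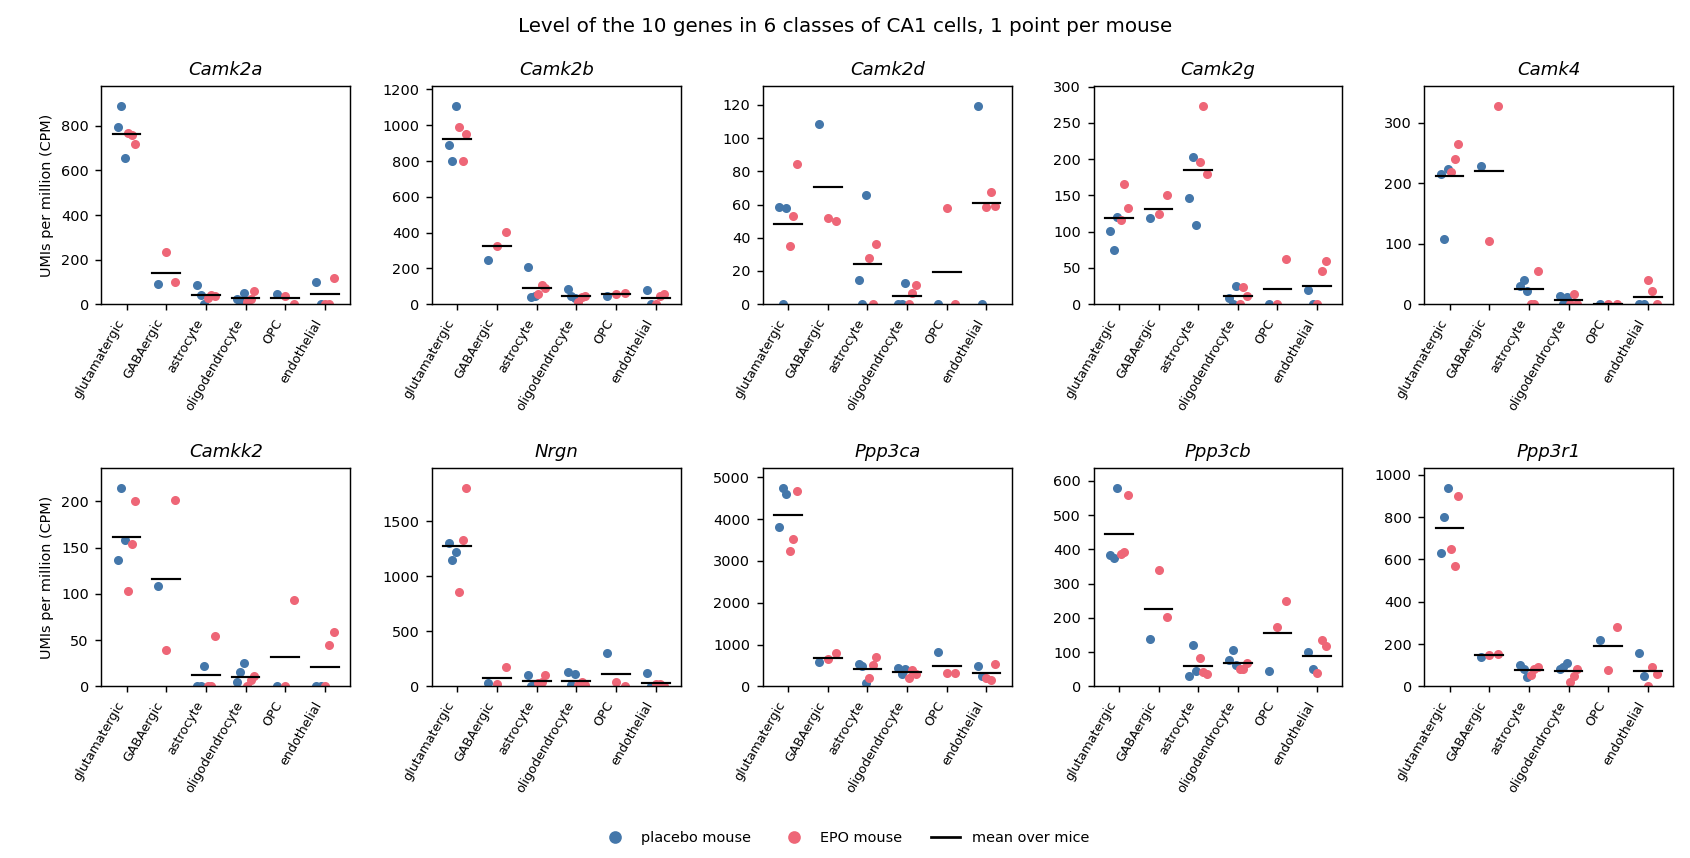
Level of each of the 10 genes (CPM, linear axis from 0) in 6 cell classes, with 1 point per mouse holding at least 5 cells of the class and a line at the mean over mice. Camk2a, Camk2b, Nrgn, Ppp3ca, Ppp3cb and Ppp3r1 were highest in glutamatergic-like cells with no overlap with the next class, Camk2g had its highest mean in astrocyte-like cells (185 CPM), and Camk2d reached 61.0 CPM in endothelial-like cells.

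Among the CaMKII genes, Camk2a and Camk2b were highest in glutamatergic-like cells, whereas Camk2d and Camk2g were not. Camk2a, the alpha subunit gene of forebrain excitatory neurons, ran from 655 over a median of 762 to 888 CPM in glutamatergic-like cells of the 6 mice (mean 763 ± 77.8, SD). Its next class was GABAergic-like with 89.0, 235 and 100.7 CPM in placebo mouse 5, EPO mouse 4 and EPO mouse 6, the mice with enough of these cells. Every glutamatergic value thus lay above every GABAergic value, while the GABAergic, endothelial, astrocyte, oligodendrocyte and precursor-like classes overlapped their neighbours in the order of means.

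Camk2b (chr11:5969644-6066362, minus strand, mm10), the beta subunit gene, ran from 801 over 919.6 to 1107 CPM in glutamatergic-like cells (mean 924 ± 118, SD, n = 6 mice). In GABAergic-like cells it stood at 247, 326 and 403 CPM in the mice named above. These cells lay above astrocyte-like cells (90.1 ± 62.1 CPM, SD, n = 6), the next class in the order, without overlap. Microglia-like cells, outside the order, held 260 and 389 CPM in EPO mouse 2 and placebo mouse 1, within the GABAergic range. All 18 of these cells together held 16 Camk2b UMIs, and the value of EPO mouse 2 rested on 3.

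Camk2g (chr14:20734875-20794088, minus strand), the gamma subunit gene, had its highest mean in astrocyte-like cells, at 185 ± 55.6 CPM (SD, n = 6 mice, 50 UMIs in 76 cells), against 131 ± 17.3 CPM in GABAergic-like (n = 3) and 118 ± 30.4 CPM in glutamatergic-like cells (n = 6). The astrocyte values were 147, 203 and 109 CPM with placebo (mice 1, 3 and 5), compared with 196, 273 and 180.1 CPM with EPO (mice 2, 4 and 6). The glutamatergic values of the same mice were 100.8, 74.9 and 120.3 CPM with placebo and 116, 165 and 133 CPM with EPO. Within the mouse, the astrocyte value was the higher of the pair in 5 of 6 mice and the lower in placebo mouse 5, but the ranges of the 3 leading classes overlapped. The pooled astrocyte level was 138% of the glutamatergic level, while the 6 glutamatergic marker genes stood at 7.11% in the same cells.

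Camk2d (chr3:126596302-126846326, plus strand), the delta subunit gene, showed no separate class. It averaged 70.4 ± 33.2 CPM in GABAergic-like (SD, n = 3), 61.0 ± 42.3 CPM in endothelial-like (n = 5) and 48.1 ± 28.3 CPM in glutamatergic-like cells (n = 6), and all neighbours in the order overlapped. Endothelial-like cells held 119 CPM in placebo mouse 1, 0 CPM in placebo mouse 5, and 58.7, 67.6 and 59.2 CPM in EPO mice 2, 4 and 6, from 13 UMIs in all. In microglia-like cells it rested on 9 UMIs in 18 cells, 7 of them in placebo mouse 1. Relative to glutamatergic-like cells, Camk2d stood at 118% in endothelial-like and 298% in microglia-like cells, where glutamatergic markers stood at 3.49% and 12.7%.

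Camk4 and Camkk2, like Camk2d and Camk2g, overlapped between both neuron classes. Camk4 had like means in GABAergic-like (220 ± 112 CPM, SD, n = 3) and glutamatergic-like cells (211 ± 54.1 CPM, n = 6), with overlapping ranges, and both lay above astrocyte-like cells (24.3 ± 21.7 CPM, n = 6). The GABAergic values were 227 CPM in placebo mouse 5, 104 CPM in EPO mouse 4 and 327 CPM in EPO mouse 6. No Camk4 UMI was found in 37 oligodendrocyte precursor-like cells, where a count of 0 still allowed 57.9 CPM (3 UMIs) in EPO mouse 4, the mouse with most of these cells. Camkk2 (chr5:122731170-122779409, minus strand), which encodes the kinase that activates CaMKIV, averaged 161 ± 40.9 CPM in glutamatergic-like (n = 6) and 116 ± 81.4 CPM in GABAergic-like cells (n = 3), which overlapped, and 10.5 to 31.3 CPM in the 4 other classes compared.

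The calcineurin genes were highest in glutamatergic-like cells throughout. Ppp3ca (chr3:136670124-136937727, plus strand), the alpha catalytic subunit gene, ran from 3228 over 4217 to 4742 CPM there (mean 4099 ± 658, SD, n = 6 mice). GABAergic-like cells held 574, 659 and 805 CPM in placebo mouse 5, EPO mouse 4 and EPO mouse 6. The 4 non-neuronal classes in the order had means of 327 CPM in endothelial-like to 485 CPM in oligodendrocyte precursor-like cells, and the only gap in the order lay below the glutamatergic-like class. Microglia-like cells, outside the order, held 520 and 778 CPM in their 2 mice.

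Ppp3cb (chr14:20499364-20546573, minus strand), the beta catalytic subunit gene, ran from 375 over 389 to 579 CPM in glutamatergic-like cells (mean 446 ± 95.9, SD, n = 6). GABAergic-like cells averaged 226 ± 103 CPM (n = 3) with a highest value of 339 CPM, just under the lowest glutamatergic value. Ppp3r1 (chr11:17159263-17200375, plus strand), the calcium-binding regulatory subunit gene, ran from 570.4 over 726 to 936 CPM in glutamatergic-like cells (mean 748 ± 153, n = 6), and stood at 138, 150.03 and 151 CPM in GABAergic-like cells. Oligodendrocyte precursor-like cells held a mean of 193 CPM, which overlapped with the GABAergic values.

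Nrgn (chr9:37544492-37552904, minus strand) ran from 857 over 1265 to 1801 CPM in glutamatergic-like cells (mean 1277 ± 308, SD, n = 6 mice). In GABAergic-like cells it was 29.7 CPM in placebo mouse 5, 26.1 CPM in EPO mouse 4 and 176 CPM in EPO mouse 6. No class other than glutamatergic-like was separated from its neighbours. Pooled, Nrgn stood at 4.36% of the glutamatergic level in GABAergic-like and at 4.45% in oligodendrocyte-like cells, at or below the 9.38% and 4.72% at which the glutamatergic marker genes were found there. In oligodendrocyte precursor-like and microglia-like cells it stood at 4.94% and 17.3%, above the 2.42% and 12.7% of the markers. The part of free RNA or of doublets in these levels was not tested. Barcodes that failed the cell filter carried the 10 genes at 21.3% (Nrgn) to 69.7% (Camk2d) of their glutamatergic level.

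Glutamatergic-like cells were compared with oligodendrocyte-like cells within the 6 mice by edgeR's quasi-likelihood test. All 10 genes were higher in glutamatergic-like cells, in a comparison in which 64% of 6597 genes were called at an adjusted p under 0.05, and 35.9% of the 6597 were called higher in these cells. The log2 difference was 4.58 ± 0.28 (SE) for Camk2a, 4.34 ± 0.27 for Nrgn, 4.17 ± 0.36 for Camk4, 4.04 ± 0.26 for Camk2b and 3.97 ± 0.41 for Camkk2. It was smaller for Ppp3ca (3.42 ± 0.26), Ppp3r1 (3.17 ± 0.24), Camk2d (3.15 ± 0.58), Camk2g (2.97 ± 0.38) and Ppp3cb (2.51 ± 0.23). Benjamini-Hochberg adjusted p-values of edgeR lay between 9.86e-48 (Camk2a) and 2.84e-07 (Camk2d). The median over the 10 genes was 3.69, against 0.16 over all genes, a median that moved to 0.28 and 0.40 under other scalings to library size. Camk2d was too low to be tested without EPO mouse 4 and differed by 2.27 in limma.

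Within neurons, 6 of the 10 genes were higher in glutamatergic-like than in GABAergic-like cells of the same 3 mice, where edgeR called 9.69% of 8520 genes, and 5.66% of the 8520 as higher. These were Nrgn with a log2 difference of 4.75 ± 0.38 (SE), Ppp3ca with 2.67 ± 0.27, Ppp3r1 with 2.38 ± 0.32, Camk2a with 2.28 ± 0.33, Camk2b with 1.58 ± 0.29 and Ppp3cb with 1.12 ± 0.31. The adjusted p of edgeR ran from 4.89e-33 for Nrgn to 0.00617 for Ppp3cb. Not called were Camkk2 (0.85 ± 0.39, adjusted p = 0.19 in edgeR), Camk4 (0.32 ± 0.33, 0.67), Camk2g (0.15 ± 0.38, 0.889) and Camk2d (-0.23 ± 0.46, 0.86). The median over the 10 genes was 1.35, against 0.14 over all genes. Ppp3cb was not called by limma (adjusted p = 0.12), by DESeq2 (0.174), with at most 20% mitochondrial UMIs (0.0548), without placebo mouse 5 (0.339) or without EPO mouse 6 (0.274). Its log2 difference was 0.62 without placebo mouse 5 and 1.81 without EPO mouse 4, and that of Nrgn was 5.46 without EPO mouse 6. The 3 mice held 8 to 15 GABAergic-like cells each, which limits this comparison.

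**Figure D2:**
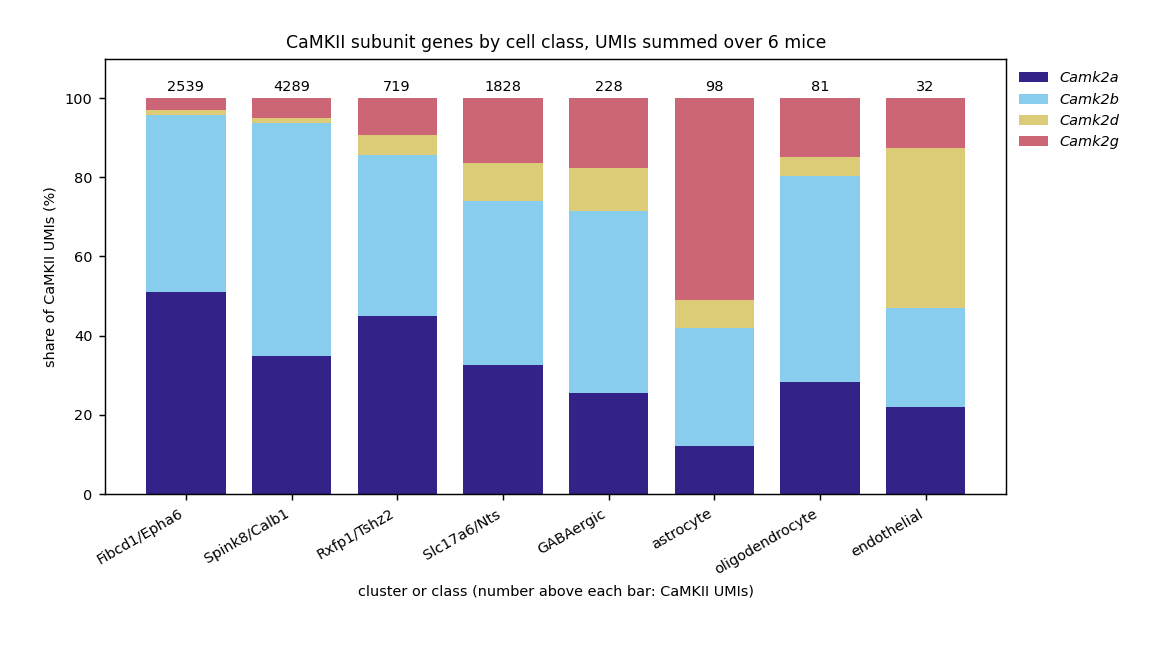
Share of each CaMKII subunit gene in the UMIs of all 4 subunit genes (percent, stacked bars from 0 to 100), summed over the 6 mice in 4 clusters of glutamatergic-like cells and in 4 other classes. The number above a bar is its CaMKII UMIs, from 4289 in the Spink8/Calb1 cluster to 32 in endothelial-like cells; the Camk2g part is widest in astrocyte-like cells and the Camk2d part in endothelial-like cells.

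The proportions of the 4 subunit genes do not depend on library size, since each is a share of the CaMKII UMIs. In glutamatergic-like cells, Camk2a took 41.3% ± 5.56 and Camk2b 49.7% ± 4.5, with Camk2g at 6.39% ± 1.70 and Camk2d at 2.57% ± 1.51 (SD, n = 6 mice). In GABAergic-like cells, Camk2a took 15.8% in placebo mouse 5, 31.9% in EPO mouse 4 and 14.3% in EPO mouse 6, Camk2b 48.4% ± 7.56 and Camk2g 19.8% ± 2.56 (n = 3). In astrocyte-like cells, Camk2g had the largest mean share with 55.8% ± 14.1 (n = 6). In placebo mouse 1, with 31 of the 98 CaMKII UMIs of these cells, Camk2b led with 45.2% against 32.3% for Camk2g. Camk2g led in the other mice, which held 7 to 20 CaMKII UMIs each. In endothelial-like cells, Camk2d held 13 of the 32 CaMKII UMIs. These few UMIs were spread unevenly, and in EPO mouse 6 Camk2a led with 40% against 20% for Camk2d. Camk2b led the pooled UMIs of GABAergic-like and oligodendrocyte-like cells, as it did in glutamatergic-like cells.

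The Camk2a share exceeded that of all non-neuronal cells (17.8% ± 3.92) in 6 of 6 mice, by 23.5 percentage points (exact permutation by sign flips within mice, two-sided p = 0.03125, which 6 mice cannot undercut, and 0.0938 after Benjamini-Hochberg adjustment over 3 shares). It exceeded the GABAergic share in 3 of 3 mice by 17.5 points (exact permutation p = 0.25, which 3 mice cannot undercut, adjusted p = 0.25). Likewise, Ppp3ca made up 89.4% ± 0.579 of the Ppp3ca and Ppp3cb UMIs in glutamatergic-like and 75.5% ± 8.24 in GABAergic-like cells of the same 3 mice, a difference of 13.9 points (exact permutation p = 0.25, adjusted p = 0.25). With 3 mice, this test cannot pass 0.05. Among the non-neuronal cells, the oligodendrocyte-like class had a Camk2a share of 34.1% ± 12.7 (SD, n = 6), from 81 CaMKII UMIs. It exceeded the glutamatergic share in placebo mouse 5 (40% against 33.8%), EPO mouse 2 (50% against 40.1%) and EPO mouse 6 (45.5% against 38.1%). These values of oligodendrocyte-like cells rested on 10, 2 and 11 CaMKII UMIs. In the other mice the oligodendrocyte-like share was the lower. Without integration of the treatments, the difference from non-neuronal cells was 2.57 points, and with classes set by a marker gate 10.6 points; in these settings 67 of 377 and 30 of 341 non-neuronal cells had been glutamatergic-like.

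**Figure D3:**
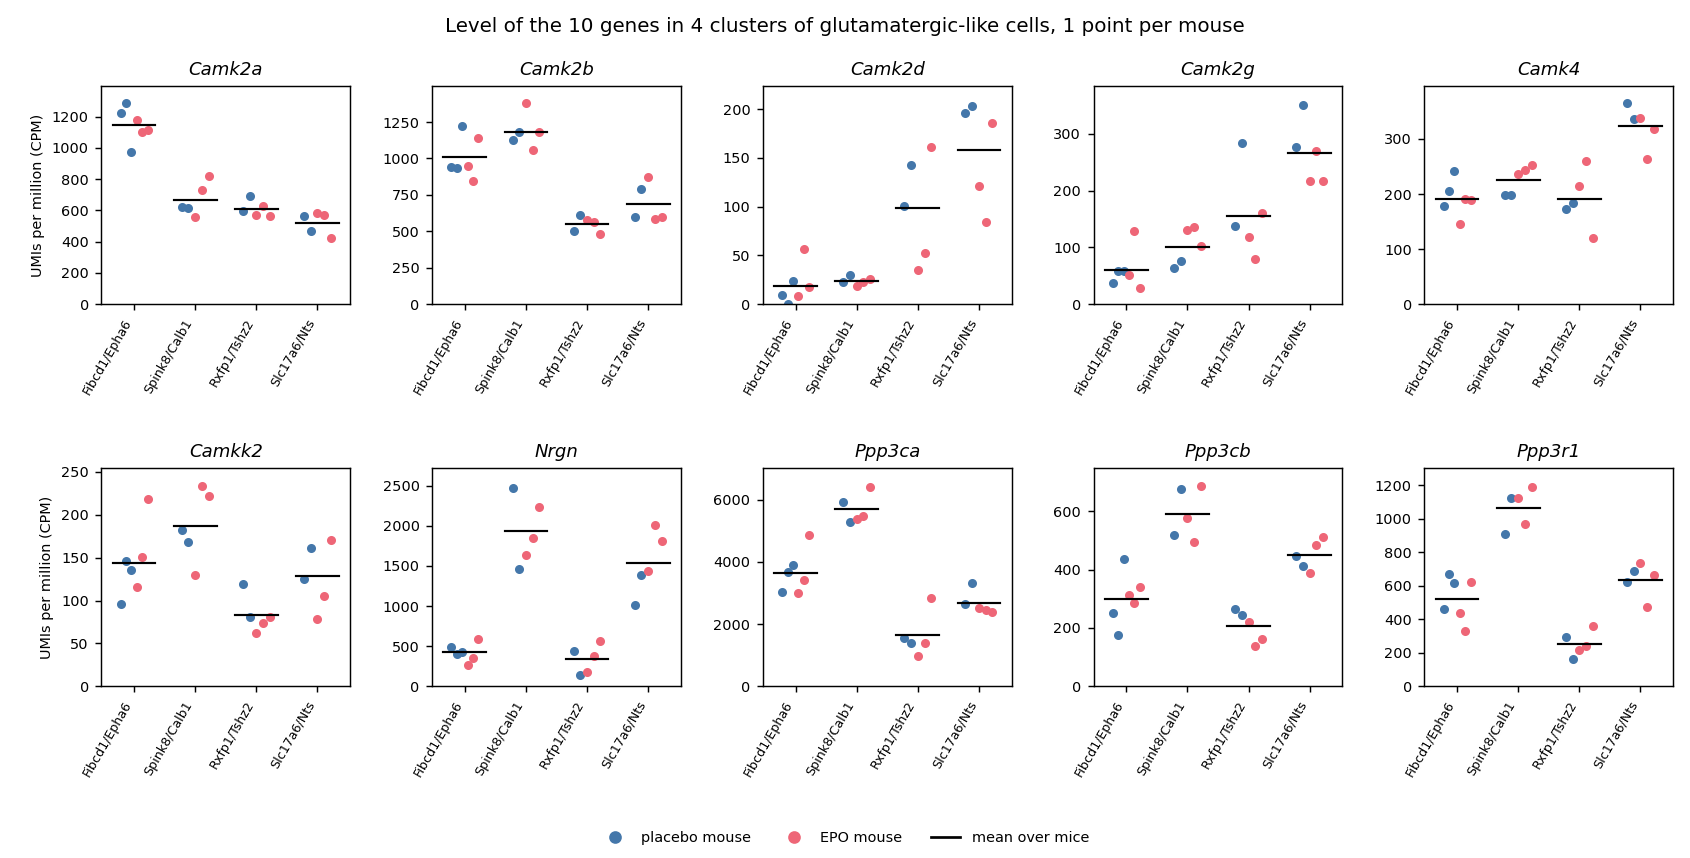
Level of each of the 10 genes (CPM, linear axis from 0) in the 4 clusters of glutamatergic-like cells, with 1 point per mouse holding at least 5 cells of the cluster and a line at the mean. By the mean, Camk2a was highest in the Fibcd1/Epha6 cluster, Nrgn and Ppp3ca in the Spink8/Calb1 cluster, and Camk2d, Camk2g and Camk4 in the Slc17a6/Nts cluster. The ranges of Nrgn overlapped between the Spink8/Calb1 and Slc17a6/Nts clusters.

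The glutamatergic-like cells were not uniform for these genes. The clusters were built from other genes of the same cells, so the differences among them are given as descriptions without a test. The barcodes shared by placebo mouse 1 and EPO mouse 4 were kept in these comparisons. Both clusters with CA1 pyramidal markers, here named by their leading genes Fibcd1 and Epha6 (249 cells) and Spink8 and Calb1 (167 cells), could be compared in 5 mice. They went in opposite directions for Camk2a and Nrgn. Camk2a stood at 1223 and 971 CPM with placebo (mice 1 and 5), compared with 1176, 1103 and 1114 CPM with EPO (mice 2, 4 and 6) in the Fibcd1/Epha6 cluster. In the Spink8/Calb1 cluster, it was 619 and 613 CPM in the placebo mice and 557, 728 and 822 CPM in the EPO mice. It was higher in the Fibcd1/Epha6 cluster in 5 of 5 mice, 1.67 times on average, without overlap.

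Nrgn stood at 488 and 429.7 CPM with placebo (mice 1 and 5), compared with 270.4, 349 and 591 CPM with EPO (mice 2, 4 and 6) in the Fibcd1/Epha6 cluster. The Spink8/Calb1 cluster, which has Nrgn among its 10 leading genes, held 2474 and 1466 CPM in the placebo mice and 1633, 1851 and 2239 CPM in the EPO mice. Thus, Nrgn in the former was 0.22 of its level in the latter. The calcineurin genes also were lower in the Fibcd1/Epha6 cluster in 5 of 5 mice without overlap, with 3639 against 5691 CPM for Ppp3ca, 325 against 589 CPM for Ppp3cb and 494 against 1064 CPM for Ppp3r1. The share of Camk2a among CaMKII UMIs was 50.4% and 33.8%, respectively, and that of Camk2b 45.8% and 59.9%, again without overlap.

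The median cell of the Fibcd1/Epha6 cluster held 3781 UMIs with 14.2% of them mitochondrial, and that of the Spink8/Calb1 cluster 10229 UMIs with 4.00%. Among cells of 5000 to 10000 UMIs, pooled Camk2a was 1118 against 708 CPM and Nrgn 379.7 against 1771 CPM. Among cells with at most 10% mitochondrial UMIs, Camk2a was 1174 against 687 CPM and Nrgn 569 against 1905 CPM, whereas Ppp3ca came to 5008 against 5791 CPM. Both of these restrictions were chosen after the data had been seen.

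The Slc17a6/Nts cluster (84 cells), which carries markers of the subiculum, differed from the CA1 pyramidal-like cells in the minor CaMKII genes. Camk2d stood there at 196 and 203 CPM with placebo (mice 1 and 5), compared with 121, 84.6 and 186 CPM with EPO (mice 2, 4 and 6). In the CA1 pyramidal-like cells of the same mice, it was 16.6 and 28.3 CPM with placebo and 13.4, 36.9 and 23.8 CPM with EPO, so that the cluster held 6.65 times the level, without overlap. Camk2g was 3.09 times higher (266 against 86.0 CPM) and Camk4 1.55 times higher (324 against 209 CPM), both in 5 of 5 mice without overlap. Camk2a (521 against 847 CPM), Camk2b (689 against 1106 CPM) and Ppp3ca (2665 against 4879 CPM) were lower in 5 of 5 mice, while the ranges of Nrgn, Ppp3cb, Ppp3r1 and Camkk2 overlapped. Camk2d and Camk2g together took a larger part of CaMKII, with 9.72% and 16.3% against 1.16% and 4.17%. Among cells of 5000 to 10000 UMIs, pooled Camk2d was 152 CPM in 24 cells of this cluster and 134 CPM in the Rxfp1/Tshz2 cluster described next, against 18.4 and 22.4 CPM in the Fibcd1/Epha6 and Spink8/Calb1 clusters. Over all cells, the ranges of Camk2d (158 against 98.3 CPM) and Camk2g (266 against 156 CPM) overlapped with those of the Rxfp1/Tshz2 cluster. Against the Spink8/Calb1 cluster alone, Camk2a of the Slc17a6/Nts cluster (521 against 668 CPM) was higher in 1 of 5 mice, with overlapping ranges. The Camk2a shares of these 2 clusters (32.0% against 33.8%) overlapped as well.

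In the Rxfp1/Tshz2 cluster (117 cells), 4 markers of deep cortical layers were each detected in at least 10% of cells. Of its 10 leading genes, 1 was such a marker (Garnl3). The cluster was lower than the CA1 pyramidal-like cells for the calcineurin genes and Nrgn. Ppp3ca stood at 1562 and 1403 CPM with placebo (mice 1 and 5), compared with 978, 1394 and 2854 CPM with EPO (mice 2, 4 and 6), a mean of 1638 against 4879 CPM in CA1 pyramidal-like cells of these mice. Nrgn (340.03 against 1363 CPM), Ppp3r1 (254 against 850.4 CPM), Ppp3cb (206 against 494 CPM), Camk2b (547 against 1106 CPM) and Camkk2 (83.4 against 169 CPM) were lower in 5 of 5 mice as well, without overlap. Camk2d was higher in 5 of 5 mice (98.3 against 23.8 CPM), although the ranges overlapped. These cells had a median of 3775 UMIs with 21.5% mitochondrial, so that depth and mitochondrial share moved with these levels. Among cells of 5000 to 10000 UMIs, pooled Ppp3ca was 1099 CPM in 30 cells of this cluster, against 3353 CPM in the Fibcd1/Epha6 cluster. With at most 10% mitochondrial UMIs it was 2269.6 CPM, from 8 cells. Nrgn was about as low in the Fibcd1/Epha6 cluster (426 CPM over the same 5 mice), and with at most 10% mitochondrial UMIs it was 730.5 CPM here, against 569 CPM there.

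The similarity of patterns was measured by Pearson's r of log2 CPM over 31 sums of a class within a mouse, which share libraries, depth and class composition; it is given as a description. Among 5883 genes with at least 200 UMIs, Camk2a was most like Ppp3ca (r = 0.93), the Rac regulator gene Chn1 (0.93) and the kinase-like gene Camkv (0.92). Ppp3ca in turn was most like Camk2a (0.93), Chn1 (0.92) and the neurofilament gene Nefl (0.92), and Nrgn was most like Ppp3ca (0.89), the calcium pump gene Atp2b1 (0.88) and the dendritic gene Ddn (0.86). Camk4 was most like Mpped1 (0.90), the chloride transporter gene Slc12a5 (0.88) and Vgf (0.87). Camk2d reached 0.75 with Ssbp4 and Bend5 and 0.72 with Tasp1. Among the 10 genes themselves, r ran from 0.10 for Camk2d with Ppp3r1 to 0.93 for Camk2a with Ppp3ca, and all 5 lowest values involved Camk2d. A gene compared with all others had a median r of 0.11 to 0.16.

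Partners of the same pathway were followed with a list of 30 genes, such as calmodulins, CaMKII inhibitors, calcineurin regulators, receptors and scaffolds. Of 17 list genes tested between glutamatergic-like and oligodendrocyte-like cells, edgeR called 14 higher and 1 lower, with a median log2 difference of 3.27 against 0.16 over all genes. Of all 6597 genes, 35.9% were called higher and 64% in either direction. The smallest p-values were those of the AMPA receptor gene Gria1 (log2 difference 4.44 ± 0.27, SE), the NMDA receptor gene Grin2b (4.29 ± 0.27), the calmodulin-binding growth cone gene Gap43 (4.32 ± 0.28) and the CaMKII inhibitor gene Camk2n1 (3.27 ± 0.24).

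Between glutamatergic-like and GABAergic-like cells, 24 list genes were tested, of which 5 were higher and 5 lower (median log2 difference 0.73 against 0.14). Of all 8520 genes, 5.66% were called higher and 9.69% in either direction. The calcineurin regulator gene Rcan2 was lower in glutamatergic-like cells by edgeR's test (log2 difference -3.52 ± 0.40, SE, adjusted p = 2.45e-16), as was the calmodulin-binding Pcp4l1 (-2.99 ± 0.43, 2.8e-10). The calmodulin gene Calm2 (1.93 ± 0.26, 1.81e-11) and Camk2n1 (1.79 ± 0.30, 1.05e-07) were higher in the same test. Calm2 averaged 3761 ± 725 CPM in glutamatergic-like (SD, n = 6), 1138 ± 384 CPM in GABAergic-like (n = 3) and 408 ± 122 CPM in oligodendrocyte-like cells (n = 6).

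**Figure D4:**
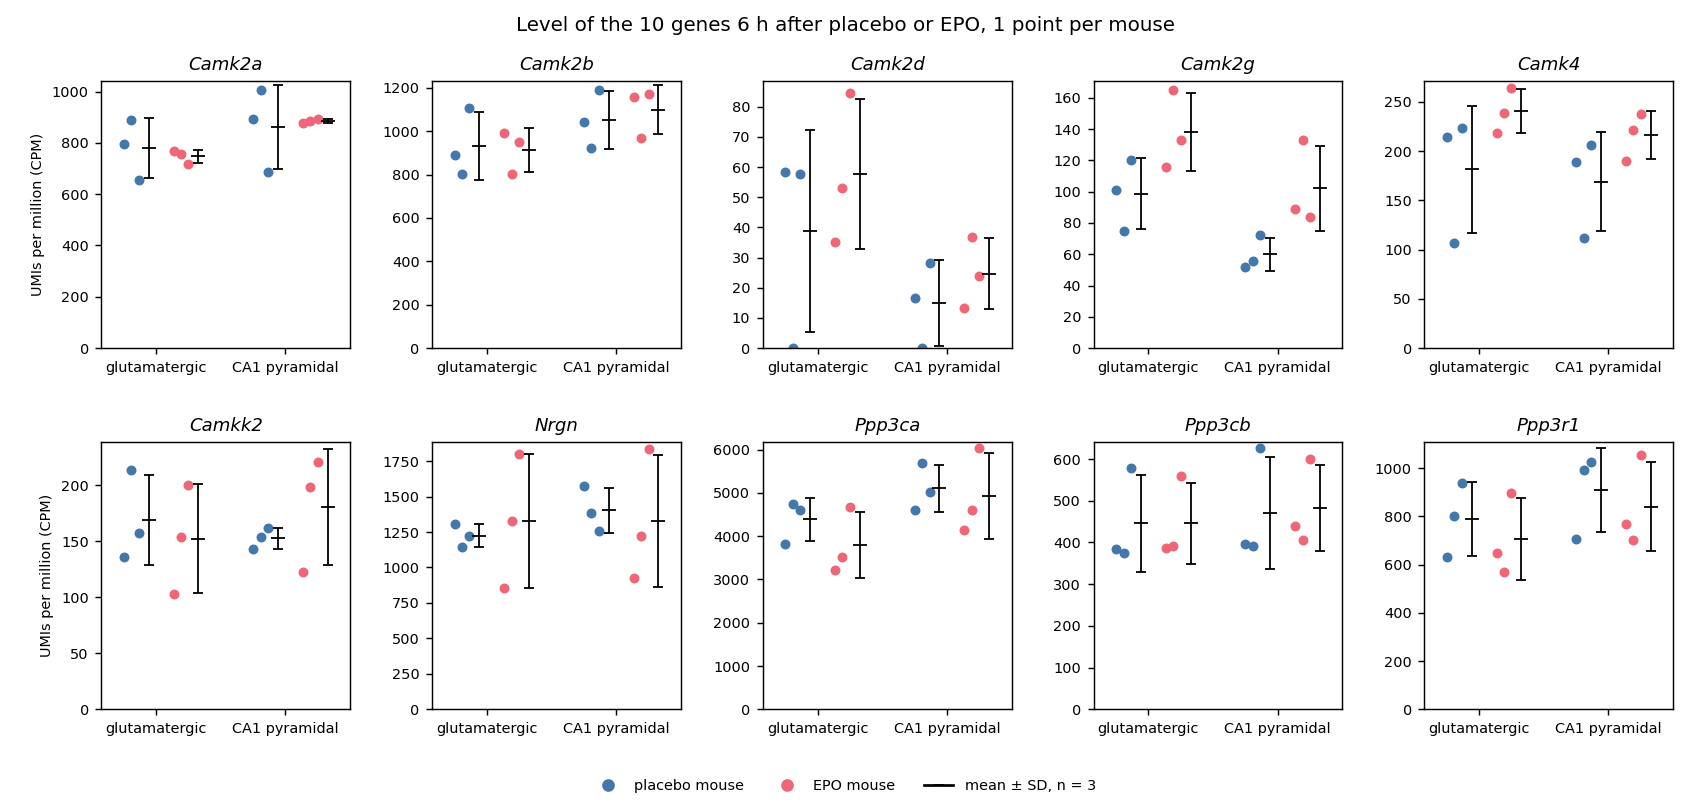
Level of each of the 10 genes (CPM, linear axis from 0) in glutamatergic-like and in CA1 pyramidal-like cells 6 h after placebo or EPO, with 1 point per mouse and the mean ± SD of 3 mice. The treatment groups overlap in every panel except Camk2g in CA1 pyramidal-like cells, where the EPO mice lie between 84.0 and 133 CPM and the placebo mice between 51.8 and 72.0 CPM.

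The treatment itself was compared between 3 EPO and 3 placebo mice, which asks whether these genes differed 6 h after the injection. In glutamatergic-like cells, 0 of the 10 genes were called (edgeR quasi-likelihood test, 0% of 8499 genes called), and 0 of 10 had groups that did not overlap, as against 6.32% of all genes. In CA1 pyramidal-like cells, edgeR called 0 of 10 (0% of 7380 genes), and 1 of 10, Camk2g, did not overlap (6.23% of all genes). In all retained cells, 0 of 10 were called (0% of 10043 genes), and 1 of 10, Camk2a, did not overlap (5.85% of all genes). These shares of separated genes are near those of all genes. By limma and DESeq2, 0 of the 10 genes were called as well. An unadjusted edgeR p under 0.05 was seen for 1 of the 10 in CA1 pyramidal-like cells, where 108 of all 7380 genes had one. It was seen for 0 of the 10 in glutamatergic-like cells (145 of 8499 genes) and in all retained cells (127 of 10043 genes). A p that misses the threshold does not show that the levels were alike.

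Camk2g in CA1 pyramidal-like cells was 51.8, 55.9 and 72.0 CPM with placebo (mice 1, 3 and 5), compared with 89.2, 133 and 84.0 CPM with EPO (mice 2, 4 and 6). All EPO mice were thus above all placebo mice, with a log2 difference of 0.75 ± 0.30 (SE) and an adjusted p of 1.00 in edgeR, although its unadjusted p was under 0.05. Within D1 it was 0.73 and within D2 0.59 on the log2 scale. Without the 26 shared barcodes in both mice, placebo mouse 1 came to 62.3 CPM, EPO mouse 4 to 138 CPM, and the difference to 0.63 ± 0.32, no longer under 0.05 without adjustment. Without EPO mouse 4 it was 0.47 ± 0.33, and likewise not under 0.05. Nor was the unadjusted p of Camk2g under 0.05 with DESeq2 or without placebo mouse 1. The CA1 pyramidal-like value of placebo mouse 3 rested on 4 UMIs in 11 cells. In the Fibcd1/Epha6 cluster alone, Camk2g was 36.5, 58.5 and 58.9 CPM with placebo and 51.5, 129 and 28.7 CPM with EPO. There the groups overlapped. In the Spink8/Calb1 cluster, it was 64.6 and 75.3 CPM with placebo (mice 1 and 5) and 130, 136 and 102 CPM with EPO. Over all glutamatergic-like cells, Camk2g was 100.8, 74.9 and 120.3 CPM with placebo and 116, 165 and 133 CPM with EPO, and the groups overlapped (log2 difference 0.37 ± 0.25).

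Camk2a in all retained cells was 518, 421 and 536 CPM with placebo (mice 1, 3 and 5), compared with 583, 544 and 605 CPM with EPO (mice 2, 4 and 6), a log2 difference of 0.17 ± 0.21 (SE). Glutamatergic-like cells gave 62.6%, 45.7% and 80.3% of the UMIs in the placebo mice and 74.5%, 68.7% and 82.8% in the EPO mice; over a mixture of cells, fewer cells of a type and less RNA per cell cannot be told apart. Within glutamatergic-like cells, Camk2a was 794, 888 and 655 CPM with placebo and 767, 757 and 719 CPM with EPO. The EPO mice there lay inside the placebo range, and the log2 difference was -0.10 ± 0.21.

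Of the other CaMKII genes in glutamatergic-like cells, Camk2b was 888, 803 and 1107 CPM with placebo (mice 1, 3 and 5), compared with 993, 801 and 951 CPM with EPO (mice 2, 4 and 6), a log2 difference of -0.08 ± 0.20, SE. Camk2d was 58.2, 0 and 57.7 CPM with placebo and 35.3, 53.1 and 84.4 CPM with EPO (0.14 ± 0.38). The value of 0 belongs to placebo mouse 3, which had 16 glutamatergic-like cells, and both genes overlapped between the groups.

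Camk4 was 214, 107 and 223 CPM with placebo (mice 1, 3 and 5), compared with 219, 239 and 264 CPM with EPO (mice 2, 4 and 6), a log2 difference of 0.25 ± 0.23. Its lowest value, again in placebo mouse 3, rested on 10 UMIs, and placebo mouse 1 came to 141 CPM without the shared barcodes. Camkk2 was 136, 214 and 158 CPM with placebo and 103, 154 and 200.2 CPM with EPO (-0.13 ± 0.25). The sign of the Camkk2 difference was negative within D1 (-0.77) and positive within D2 (0.17). In CA1 pyramidal-like cells of placebo mouse 1, it was 143 CPM with the shared barcodes and 93.5 CPM without them.

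Ppp3ca was 3823, 4742 and 4611 CPM with placebo (mice 1, 3 and 5), compared with 3228, 3521 and 4668 CPM with EPO (mice 2, 4 and 6), a log2 difference of -0.27 ± 0.24 (SE). With all barcodes, EPO mice 2 and 4 were the lowest of the 6 mice, while EPO mouse 6 lay among the placebo mice. Without the shared barcodes, Ppp3ca was 3119 CPM in placebo mouse 1, then the lowest value, and 3468 CPM in EPO mouse 4. Ppp3cb was 383, 375 and 579 CPM with placebo and 387, 392 and 559 CPM with EPO (-0.07 ± 0.21), and Ppp3r1 was 629, 803 and 936 CPM with placebo and 649.5, 570.4 and 898 CPM with EPO (-0.21 ± 0.21). For both of these genes, the highest values were those of placebo mouse 5 and EPO mouse 6. Without the shared barcodes, Ppp3r1 in placebo mouse 1 was 418 CPM in place of 629 CPM, and 417 in place of 707 CPM in its CA1 pyramidal-like cells.

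Nrgn was 1307, 1145 and 1223 CPM with placebo (mice 1, 3 and 5), compared with 857, 1331 and 1801 CPM with EPO (mice 2, 4 and 6), a log2 difference of 0.04 ± 0.23. The EPO mice held both the lowest and the highest value, and the spread between them (SD 472 CPM) exceeded that of the placebo mice (80.7 CPM). The Spink8/Calb1 cluster, with the highest mean of Nrgn, made up 11.8%, 22.4% and 30.6% of the glutamatergic-like cells in EPO mice 2, 4 and 6, and the Rxfp1/Tshz2 cluster 33.3%, 25.5% and 6.48%. In the placebo mice these shares were 18.9%, 25% and 47.1%, and 21.1%, 25% and 8.09%. Nrgn of the Slc17a6/Nts cluster (1532 against 1933 CPM) overlapped with that of the Spink8/Calb1 cluster. Its share of the cells was 6.86%, 15.2% and 20.4% with EPO and 11.1%, 6.25% and 14.0% with placebo. The part of these shares in the spread was not tested. Across the 10 genes, the difference had the same sign within D1 and within D2 for 4 genes in all retained cells, 5 in glutamatergic-like and 4 in CA1 pyramidal-like cells.

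The make-up of the kinase and of the phosphatase differed by less than the spread between the placebo mice. Camk2a took 43.1%, 50.3% and 33.8% of the CaMKII UMIs of glutamatergic-like cells in placebo mice 1, 3 and 5 and 40.1%, 42.6% and 38.1% in EPO mice 2, 4 and 6, a difference of -2.12 points (two-sided exact permutation test, n = 3 against 3, p = 0.7, adjusted p = 0.7 over 2 shares). Ppp3ca took 90.8% ± 1.92 of the Ppp3ca and Ppp3cb UMIs with placebo and 89.5% ± 0.396 with EPO, a difference of -1.27 points (exact permutation p = 0.4, adjusted p = 0.7). With 3 mice against 3, the smallest possible p is 0.1. Among the 30 pathway genes, edgeR called 0 of 24 tested in all retained cells, 0 of 23 in glutamatergic-like and 0 of 19 in CA1 pyramidal-like cells. Of these, 0 had an unadjusted p under 0.05. Over all genes, 127 of 10043, 145 of 8499 and 108 of 7380 had one, respectively, and edgeR called 0.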

How the data were processed

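UMI counts as deposited by the authors were not normalized and covered 1000 barcodes per mouse, with missing values (genes without a UMI in a mouse) set to 0. The submitters' processing notes name bcl2fastq 2.15, STAR 2.4.0 and mm10, while the annotation used for counting is not given in the sources used here. The 10 genes and all lists were chosen with earlier results of these data known. Cells were clustered in Seurat 5.3.0 (R 4.3.3) on 1464 variable genes after anchor integration of the treatments, with 20 dimensions and resolution 1; no doublet caller was run and doublets were kept. UMIs were summed per mouse, scaled by TMM, filtered for low counts and tested with edgeR 4.0.16 (quasi-likelihood, mouse as a block between classes, Benjamini-Hochberg at 5%); CA1 pyramidal-like sums needed at least 10 cells per mouse. limma 3.58.1 (pseudocount of 2 UMIs), DESeq2 1.42.0, other scalings, filters, class definitions and each mouse left out were alternatives. The fits were tested on simulated data with 200 genes changed. Of 2-fold EPO changes, edgeR recovered 3.5% in all retained, 19.5% in glutamatergic-like and 20% in CA1 pyramidal-like cells. Of 4-fold changes, it recovered 87.5%, 96% and 95.5%. Against oligodendrocyte-like cells it recovered 60% of 2-fold and 98.5% of 4-fold changes, and against GABAergic-like cells 5.5% and 65.5%. Named genes were the 10 genes, up to 4 pathway genes per comparison by smallest p, and the 3 most similar genes. Gene positions are from GENCODE vM21 (GRCm38). The limit of a count of 0 was taken as 3 UMIs, and it covers counting error only.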

Additional observations from a re-analysis of the deposited data

Results flagged for a closer look

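In 40 groups of 4 to 6 mice, 1 gene in 1 cell class each, 2 groups held a mouse far from the others by Dixon's criterion, where chance gives about 1 group in 20. Camk4 in glutamatergic-like cells stood at 107 CPM in placebo mouse 3, from 10 UMIs, whereas the other mice lay between 214 and 264 CPM. The value of 214 CPM in placebo mouse 1 was 141 CPM without the shared barcodes. Nrgn in endothelial-like cells stood at 119 CPM in placebo mouse 1, from 6 UMIs, whereas the other mice lay between 0 and 22.5 CPM. Whether depth or free RNA had a part in either value was not tested.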

How the results depend on the processing

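No paired analysis was possible because the placebo mice carry the numbers 1, 3 and 5 and the EPO mice 2, 4 and 6, so that no replicate number is shared between the groups. The EPO difference in the Camk2a share of CaMKII UMIs changed sign with classes set by a marker gate (1.46 points) and ranged from -6.43 to 1.83 points when each mouse was left out, the positive value being that without placebo mouse 3. The EPO difference in the Ppp3ca share turned to 0.98 points without integration (exact permutation p = 0.1, the smallest possible) and ranged from -2.25 to -0.33 points over the mice left out. Over all results, 153 values for a comparison were counted as unchanged. These were shares that kept their sign and side of the threshold, and counts of called genes that stayed the same or close to it. Against GABAergic-like cells, such counts were 6 in the main fit and 5 with limma. The 3 other values were the EPO share differences that changed sign. For single genes, 864 values stayed on their side of the threshold, whatever the sign of values not called. Another 5, for Ppp3cb between glutamatergic-like and GABAergic-like cells, lost the call. Under EPO, none of the 10 genes gained a call under the alternatives that could be fitted, but 26 of 150 fold changes in all retained cells, 19 of 200 in glutamatergic-like and 20 of 170 in CA1 pyramidal-like cells had the opposite sign, and the cause was not tested. Over all genes, EPO calls of edgeR went from 0 to 52, 11 and 8 without the filter on low counts in these 3 comparisons, and to 7 and 6 in the latter 2 without placebo mouse 5; in all retained cells, DESeq2 and the D number as a block called 1 gene each. Against GABAergic-like cells, 826 calls became 274 with limma, 409 with DESeq2, 492 without placebo mouse 5, 386 without EPO mouse 4 and 431 without EPO mouse 6. For CA1 pyramidal-like cells, no integration, at most 20% mitochondrial UMIs and the marker gate were not run, since they left a mouse with under 10 cells. The removal of shared barcodes was added after seeing the data and changed no call of the 10 genes. Depth limits Camk2d most (357 UMIs), and placebo mouse 3, with 43 cells, limits every placebo mean.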
